A study of Homo sapiens with 27 samples.

Results

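The transcription factors of the melanocyte lineage *MITF*, *SOX10*, *PAX3*, *TFAP2A*, *LEF1* and *ZEB2* were 6 of the 61533 genes in the count table. They were picked out of the table by their gene symbols alone, and each symbol matched a single gene. Earlier results of these data were known when they were chosen. The cells were 92.1, an established line from a *GNAQ* mutant uveal melanoma, a tumour of the pigment cells of the eye. All groups carried the same mutation, all were passaged in the same medium renewed every 72 h, and they differed in day and in treatment with 100 nM of VS-4718, a selective inhibitor of focal adhesion kinase (FAKi), or with its solvent DMSO. The 27 RNA libraries formed 9 groups of 3, namely DMSO on days 0, 3, 7, 14 and 21 and FAKi on days 3, 7, 14 and 21. As a model the series has 1 cell line. The study's methods describe 3 biological repeats of the full experiment, with each condition also plated in triplicate, and the labels number the 3 libraries of a group as replicates without saying to which of these levels the numbers belong. Every p-value measures the spread between these libraries.

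Melanocytes arise from the neural crest, and *MITF* is known as the master regulator of the lineage. It encodes a basic helix-loop-helix leucine zipper factor that binds short E-boxes in front of the genes for pigment enzymes and melanosome proteins. *SOX10*, an HMG-box factor, and *PAX3*, a paired-box factor, act together on the *MITF* promoter that melanocytes use. *LEF1* is the nuclear partner of beta-catenin in Wnt signalling and binds the same promoter, *TFAP2A* encodes AP-2 alpha, which shares many regulatory elements with MITF, and *ZEB2* encodes a zinc finger repressor that in melanocytes lies upstream of *MITF*.

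The first stretch shown is the 250 bases in front of the start of the melanocyte form of *MITF* (chr3:69936342-69936591, plus strand, GRCh38.p14, sequence from RefSeq). It is shown with the RefSeq promoter of *ZEB2* (chr2:144520120-144520369, minus strand), the member whose level varied most, and with 1 promoter of the MITF target *DCT* (chr13:94479683-94479932, minus strand), the pigment gene with the largest rise under FAKi on the average over days. The counted *ZEB2* transcript starts further upstream, at 144520362 (-243 from the RefSeq start site). Most of the *ZEB2* stretch thus lies within the span of that transcript. Each is written 5′ to 3′ and ends at the base before the start site, and the capitals mark the letter motifs that were searched on both strands.
MITF, melanocyte start: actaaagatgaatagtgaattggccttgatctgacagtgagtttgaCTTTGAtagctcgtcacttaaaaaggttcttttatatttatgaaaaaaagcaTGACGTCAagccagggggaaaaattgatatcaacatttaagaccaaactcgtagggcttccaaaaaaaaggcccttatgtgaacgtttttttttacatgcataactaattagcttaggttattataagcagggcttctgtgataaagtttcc
ZEB2: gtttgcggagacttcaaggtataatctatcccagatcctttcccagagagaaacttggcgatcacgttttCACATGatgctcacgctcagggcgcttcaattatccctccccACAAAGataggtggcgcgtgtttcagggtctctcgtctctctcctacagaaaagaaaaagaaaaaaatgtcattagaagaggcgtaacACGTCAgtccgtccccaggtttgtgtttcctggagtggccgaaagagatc
DCT: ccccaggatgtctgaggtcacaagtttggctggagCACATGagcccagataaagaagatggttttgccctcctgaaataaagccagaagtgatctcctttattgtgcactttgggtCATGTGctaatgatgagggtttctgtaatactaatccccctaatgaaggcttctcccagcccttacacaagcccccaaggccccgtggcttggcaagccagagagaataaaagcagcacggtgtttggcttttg

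The *MITF* promoter holds 1 match of the LEF1 and TCF motif CTTTGA, 204 bases before the start, and 2 overlapping matches of the cyclic AMP response motif TGACGT, at 152 and 150 bases. In all 35116 RefSeq promoters of the same length these motifs occur in 11.2% and 7.1%. The *MITF* stretch has no match of the SOX, ZEB or AP-2 motifs given below, and no PAX3 motif was searched. The *ZEB2* promoter has the MITF E-box CATGTG 180 bases before the start, the SOX motif ACAAAG at 138 bases and TGACGT at 50 bases, and this *DCT* promoter has CATGTG at 215 and 134 bases. The table holds another *DCT* promoter, with its start at 94549406, in which none of the motifs was found. CATGTG is found in 9.42% and ACAAAG in 13.7% of all promoters. Of the 14 pigment genes described further on, 11 have a promoter in the table, and 9 of these 11 hold CATGTG or CACGTG in at least 1 promoter. Counted by promoter this is 10 of 18, or 55.6%, against 15.2% of all promoters. The search also covered the other MITF E-box CACGTG (6.34% of all promoters), the ZEB motif CACCTG (17.5%), a second SOX motif written ACAATG (9.29%) and the AP-2 motif given as GCCNNNGGC (19.8%), of which none lies in these 3 stretches. These are matches of letters in a fixed window, and they do not show that a factor is bound.

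At *MITF* the counts cannot separate the forms of the gene. The table counted transcript ENST00000642352.1, whose start (69739482) lies 197110 bases before that of the melanocyte form, and 95.9% of the exon bases of the melanocyte transcript are also exon bases of the counted one. The *MITF* values are therefore those of the gene and not of 1 promoter. The exons of the counted transcripts of *MITF* and *PAX3* have no overlap with a gene on the opposite strand. For *SOX10* 3.11% of exon bases overlap *POLR2F*, for *ZEB2* 4.42% overlap *ZEB2-AS1*, for *TFAP2A* 7.41% overlap *TFAP2A-AS2* and for *LEF1* 7.8% overlap *LEF1-AS1*. The libraries were stranded, but the strand setting of the counting is not given in the sources used here, so reads of such partners may be among the counts.

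The library totals lay between 12161994 and 43651551 counts, with a median of 24759579. Genes encoded by the mitochondrial genome took 5.49% to 27% of the counts. In 3 groups 1 library stood apart from its own replicates, with a mean distance over 0.55 on the log2 scale: DMSO day 3 replicate 1, FAKi day 7 replicate 1 and DMSO day 21 replicate 3. This cutoff was set after the data were seen. DMSO day 3 replicate 3 was close to it, at 0.533 against 0.575 for replicate 1. In the submitters' label of DMSO day 21 replicate 3 the day is written irregularly, while its title reads day 21. The melanocyte markers were high, and a summed level of 9460 to 15368 CPM was measured over the 8 of them (CPM, counts scaled to library size), which include *MITF* and *SOX10*. The summed lists of other cell types were at 0 to 0.881 CPM for endothelial cells, 0 to 0.568 CPM for keratinocytes and epithelium, 6.17 to 17.0 CPM for fibroblasts, 23.5 to 126 CPM for leukocytes and 917 to 2627 CPM for retinal pigment epithelium. Single genes carried the larger sums. *CD68* was at 23.5 to 126 CPM, with *PTPRC* at 0 in 20 libraries, and *BEST1* was at 911 to 2617 CPM and *RLBP1* at 3.35 to 14.2 CPM, with *RPE65* at 0 in 26. *COL1A1* (3.11 to 10.1 CPM) and *LUM* (1.46 to 8.68 CPM) were found in all 27 libraries. In these bulk libraries fewer cells of a type and less RNA per cell cannot be told apart.

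All 6 genes had counts in all 27 libraries, from 66 to 372 counts for *LEF1* up to 5575 to 39520 counts for *SOX10*. Per length, as CPM per kilobase of counted exon (RPKM), *SOX10* was the highest with a mean of 233, followed by *TFAP2A* (117), *MITF* (44), *PAX3* (28.7), *ZEB2* (9.66) and *LEF1* (1.68). This order was the same in 27 of 27 libraries. Over the whole series only the ranges of *PAX3* (21.1 to 40.0 RPKM) and *ZEB2* (2.23 to 14.0 RPKM) were clear of each other, and every other pair of neighbours overlapped. Among the 43846 genes with any count, *SOX10* stood at rank 306 and *LEF1* at rank 13956. The members also differed in how much they moved: the highest library had 6.29 times the CPM of the lowest for *ZEB2*, 3.73 times for *TFAP2A*, 2.83 times for *SOX10*, 2.52 times for *MITF*, 2.39 times for *LEF1* and 1.90 times for *PAX3*.

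**Figure D1:**
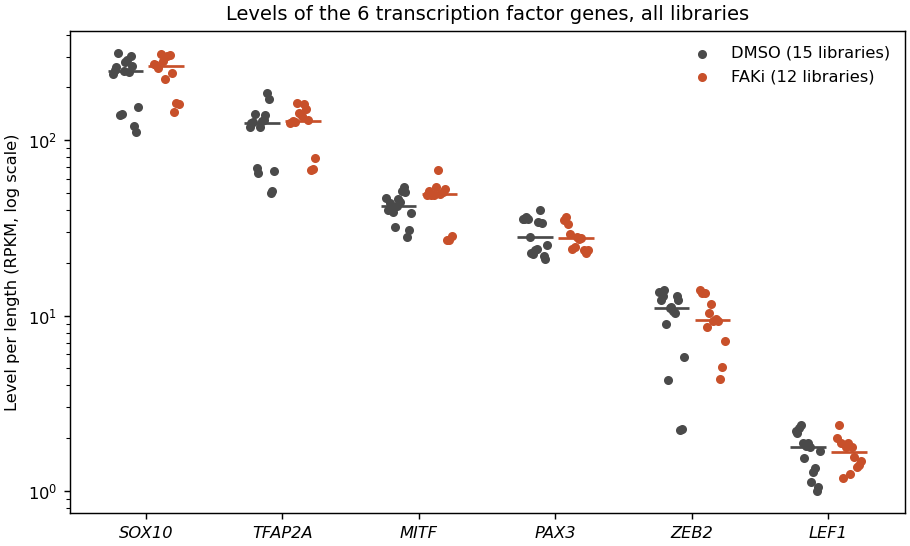
Level of each gene per length (vertical axis, RPKM, log scale) in the 15 DMSO and 12 FAKi libraries; points are libraries ordered by day and bars are medians. The 6 genes keep 1 order from *SOX10* (mean 233 RPKM) down to *LEF1* (mean 1.68 RPKM), and *ZEB2* has the longest tail of low libraries.

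The 15 DMSO libraries answer how the factors changed with time in culture when no inhibitor was given. In CPM scaled over all libraries, *SOX10* was at 680, 716 and 744 at day 0 and at 708, 801 and 818 at day 7. At day 14 it was at 702, 863 and 752, and at day 21 at 342, 317 and 441. Every day 21 library of *SOX10* thus lay below every library of days 0, 7 and 14. Day 3 was split, with 895 in replicate 1 and 398 and 403 in the other two.

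*TFAP2A* had the same shape. Day 0 gave 452, 479 and 486 CPM, day 7 gave 453, 495 and 495 and day 14 gave 530, 709 and 656. Day 21 gave 190, 196 and 256 CPM, and day 3 was split again into 538, 265 and 248. The highest levels were in 2 of the day 14 libraries and the lowest in the day 21 libraries together with 2 of day 3.

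*ZEB2*, the repressor upstream of *MITF*, started with 130, 117 and 124 CPM and had 106, 107 and 101 on day 7 and 98.5, 123 and 118 on day 14. At day 21 it had come down to 21.3, 21.5 and 55.2 CPM. The third of these libraries had more than the other two together, and it is the library that stands apart. At day 3 the values were 134, 85.4 and 40.9 CPM.

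*MITF* itself moved less. Its levels were 224, 191 and 208 CPM on day 0, then 200, 186 and 151 on day 3 and 201, 220 and 212 on day 7. At day 14 they were 244, 258 and 241 CPM, above every other DMSO library, and at day 21 they were 133, 145 and 182 CPM, below every day 0 library.

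*PAX3* had a different course. Its levels of 118, 119 and 122 CPM on day 0 were followed by 119, 93.8 and 75.8 on day 3 and by 74.5, 79.2 and 79.7 on day 7. It was at 114, 134 and 112 CPM at day 14 and at 73.4, 70.5 and 84.3 at day 21. In the fit over days it was thus lower by 0.64 on the log2 scale at day 7 (fitted -0.64), when the other members were between -0.30 and 0.10 of their day 0 levels, and its day 14 libraries were again at day 0 levels.

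*LEF1*, the Wnt effector, had 7.83, 7.63 and 8.12 CPM on day 0, then 8.43, 6.67 and 5.44 on day 3, and 6.38, 6.65 and 6.3 on day 7. It was at 4.01, 4.54 and 4.82 CPM at day 14 and at 3.54, 3.75 and 6.02 at day 21. All libraries of days 7, 14 and 21 were below all of day 0.

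**Figure D2:**
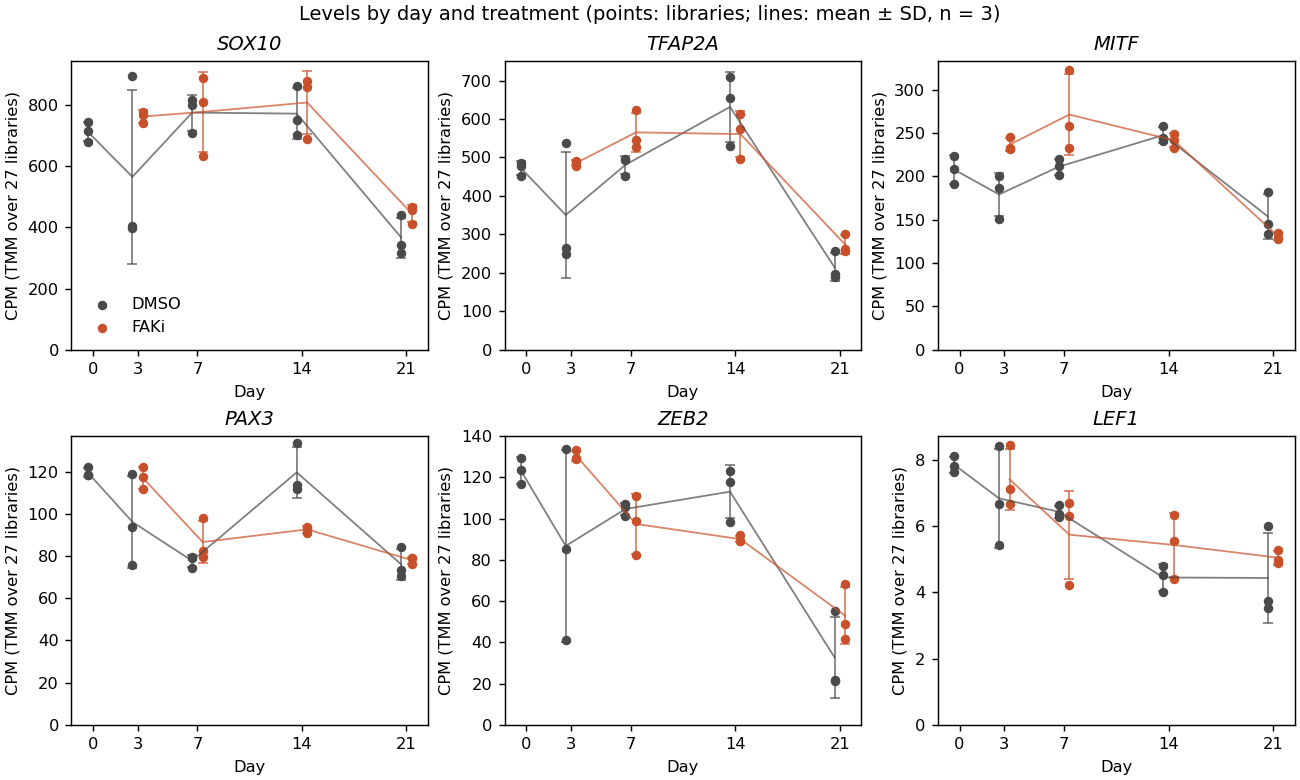
CPM of each gene (vertical axes from 0) against day in culture for DMSO and FAKi; points are libraries, lines join the group means and bars are SD (n = 3). At day 21 all 6 genes are below their day 0 mean, and at day 3 the DMSO points of *SOX10*, *TFAP2A* and *ZEB2* are far apart while the FAKi points lie together.

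In the edgeR quasi-likelihood test over the 5 days with Benjamini-Hochberg adjustment, all 6 members passed the adjusted p, from 0.000473 for *TFAP2A* to 0.0121 for *LEF1*, as did 49.9% of all genes tested. With the additional requirement of a range over 1 (log2) between the fitted day means, 3 of 6 were called, where 32.9% of all genes were: *ZEB2* with a range of 1.91, *TFAP2A* with 1.55 and *SOX10* with 1.07. The ranges of *LEF1*, *MITF* and *PAX3* were 0.82, 0.68 and 0.65. Without DMSO day 21 replicate 2 the range of *SOX10* was 0.97, just under the threshold, and without DMSO day 21 replicate 3 *LEF1* was called as well, with 1.17.

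Directly between day 21 and day 0, all 6 genes were lower at day 21, each with an adjusted p of at most 0.0436 in the edgeR test. Of all genes 44.9% passed the adjusted p, and 20.7% passed it downwards. *ZEB2* fell by 1.93 (log2, SE 0.35, adjusted p 0.00460) to 0.263 of its day 0 level, and *TFAP2A* fell by 1.15 (SE 0.15, adjusted p 0.00216) to 0.451. These 2 of 6 were called, beside 23.3% of all genes in either direction and 10% downwards. *SOX10* fell by 0.97 (SE 0.16), *LEF1* by 0.84 (SE 0.24), *PAX3* by 0.66 (SE 0.12) and *MITF* by 0.44 (SE 0.15), all short of the fold threshold. The median change of the members was -0.90, and that of all genes 0.03. Day 21 and day 0 also differed in the mitochondrial share, and its part in these falls was not tested. Without DMSO day 21 replicate 3 the call extended to *SOX10* (-1.13) and *LEF1* (-1.13), so that 4 of 6 were called, with 36.9% of all genes (17.6% downwards), and without DMSO day 0 replicate 1 *SOX10* was called with -1.004.

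The 12 FAKi libraries of days 3 to 21 were tested in the same way. *SOX10* was at 779, 769 and 740 CPM at day 3 and at 412, 468 and 456 at day 21. *TFAP2A* went from 479, 491 and 488 CPM to 257, 263 and 301. *ZEB2* went from 133, 129 and 129 CPM to 41.6, 48.9 and 68.4. For all 3 genes the day 21 libraries were below every other FAKi library.

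*MITF* was at 233, 245 and 232 CPM at day 3, at 233, 242 and 249 on day 14 and at 128, 128 and 135 at day 21, again below every other FAKi library. *PAX3* was at 118, 122 and 112 CPM at day 3 and at 79.3, 76.1 and 78.9 at day 21, and *LEF1* at 7.13, 8.46 and 6.67 and then at 4.88, 4.98 and 5.29. For *LEF1* the days overlapped, since single libraries of days 7 and 14 were lower (4.23 and 4.41 CPM).

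Of the 6 members 5 passed the adjusted p of the edgeR test over the 4 days, beside 45.1% of all genes, and 3 were called, beside 24.2%: *ZEB2* with a range of 1.30 (log2, adjusted p 5.92e-05), *MITF* with 1.05 (adjusted p 2.70e-05) and *TFAP2A* with 1.04 (adjusted p 1.30e-05). *SOX10* (0.85) and *PAX3* (0.58) passed the adjusted p alone, and *LEF1* (0.55) had an adjusted p of 0.139. Without FAKi day 7 replicate 3 the range of *MITF* was 0.93, and without FAKi day 21 replicate 1 that of *TFAP2A* was 0.997, both under the threshold.

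None of the 6 members was called between FAKi and DMSO on any of the 4 days, in the edgeR quasi-likelihood test or in DESeq2. Of all genes 0% were called on day 3, 0.0269% on day 7, 1.66% on day 14 and 5.28% on day 21. At an unadjusted p under 0.05 there was 1 member at day 3 (23.8% of all genes), 1 at day 7 (8.77%), 2 at day 14 (24.6%) and 0 at day 21 (32.6%).

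At day 3 the fitted values were above 0 for all 6, from 0.13 for *LEF1* to 0.61 for *ZEB2*, and the adjusted p ran from 0.153 to 0.731. The DMSO group was split as described, whereas the 3 FAKi libraries were close for *SOX10*, *TFAP2A* and *ZEB2*. *MITF* alone had all FAKi libraries (232 to 245 CPM) above all DMSO libraries (151 to 200 CPM), 1 of 6 members, beside 31% of all genes (14.4% with FAKi higher). Its change was 0.42 (95% confidence interval 0.07 to 0.77, adjusted p 0.153). For *ZEB2* the interval, -0.13 to 1.36, leaves room for a change over the fold threshold. Without DMSO day 3 replicate 1 it was called, with 1.07 (adjusted p 0.00388), as were 12.7% of all genes in that fit. *SOX10* (0.95, adjusted p 0.000228), *TFAP2A* (0.94, 0.000259), *MITF* (0.51, 0.0162) and *PAX3* (0.49, 0.0221) then passed the adjusted p alone, which makes 5 of 6, beside 32.7% of all genes in that fit. Of DMSO day 3 that fit keeps only the libraries with the low factor levels.

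The mitochondrial share moved with this split. It was 18.1% in DMSO replicate 1 and 16.8% to 18.7% in the FAKi libraries, and 9.59% and 8.61% in the DMSO libraries with the low factor levels. Its part in the result was not tested.

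At day 7 *MITF* was at 232, 258 and 323 CPM in FAKi, all above the 201 to 220 CPM of DMSO, with a change of 0.37 (95% interval 0.03 to 0.70, adjusted p 0.543). *TFAP2A* (528 to 624 against 453 to 495 CPM) and *PAX3* (79.8 to 98.1 against 74.5 to 79.7 CPM) were also separated, which makes 3 of 6 beside 16.8% of all genes (7.67% with FAKi higher). None of these passed the adjusted p. Without FAKi day 7 replicate 1 *MITF* did, with 0.47 (adjusted p 0.0334), 1 of 6 beside 2.96% of all genes in that fit. With all libraries *SOX10* (0.01), *ZEB2* (-0.10) and *LEF1* (-0.16) had overlapping libraries. *PAX3* had 98.1, 79.8 and 82.3 CPM and *TFAP2A* 624, 544 and 528 CPM in FAKi, and *LEF1* had 4.23, 6.32 and 6.69 CPM. In FAKi *SOX10* was at 889, 812 and 633 CPM and *ZEB2* at 82.3, 99.0 and 111 CPM, the first of each being the library that stands apart.

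At day 14 *PAX3* was at 94.1, 91.0 and 93.1 CPM in FAKi and at 112 to 134 CPM in DMSO, and *ZEB2* at 89.1, 91.9 and 89.2 CPM against 98.5 to 123 CPM, so both had all FAKi libraries below all DMSO libraries. These were 2 of 6 members, beside 29% of all genes (14% with FAKi lower). *PAX3* was lower by 0.37 on the log2 scale (fitted -0.37, SE 0.10, adjusted p 0.0183), 0.773 of the DMSO level, and *ZEB2* by 0.33 (fitted -0.33, SE 0.10, adjusted p 0.0410). With the adjusted p alone these were 2 of 6, beside 12.4% of all genes, and 6.1% in this direction. Leaving out replicate 2 of either group or replicate 1 of FAKi ended this for *PAX3*, with an adjusted p of up to 0.115, and for *ZEB2* it held in 1 of the 6 fits with a library left out, the one without DMSO day 14 replicate 1, with an adjusted p of up to 0.155 in the rest. *TFAP2A* (-0.17), *MITF* (-0.04), *SOX10* (0.07) and *LEF1* (0.28) did not pass. Their FAKi libraries were at 612, 575 and 495 CPM for *TFAP2A*, at 859, 878 and 689 CPM for *SOX10* and at 4.41, 6.33 and 5.57 CPM for *LEF1*. The interval for *MITF*, -0.23 to 0.15, was the narrowest of any member on any day.

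At day 21 *TFAP2A* was at 257, 263 and 301 CPM in FAKi, all above the DMSO libraries (190 to 256 CPM), by 0.38 (95% interval -0.00078 to 0.75, adjusted p 0.154). It was the single member with separate groups, beside 35.3% of all genes (17.7% with FAKi higher). The largest fitted difference was that of *ZEB2*, 0.72 (interval -0.16 to 1.59, adjusted p 0.228), for which the DMSO library that stands apart (55.2 CPM) lay among the FAKi libraries. Without it *ZEB2* was called, with 1.35 (adjusted p 1.44e-06), as were 18.7% of all genes. *TFAP2A* (0.54, adjusted p 0.000294), *SOX10* (0.47, 0.000859) and *LEF1* (0.52, 0.0472) then passed the adjusted p alone, which makes 4 of 6, beside 48.5% of all genes in that fit. *MITF* was the exception in sign: at 128 to 135 CPM in FAKi and 133 to 182 CPM in DMSO, it had a fitted difference of -0.22 (interval -0.57 to 0.14), and of -0.05 (adjusted p 0.674) without DMSO day 21 replicate 3. The mitochondrial share was 5.49%, 5.49% and 9.75% in DMSO and 10.7% to 11.2% in FAKi. The summed leukocyte list was at 58.5 to 70.9 CPM in DMSO and 23.5 to 27.2 CPM in FAKi, nearly all of it *CD68*, and the fibroblast list at 7.06 to 10.7 and 6.17 to 7.17 CPM. The part of either in the levels was not tested.

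Same-numbered libraries of the 2 treatments deviated together at day 21 (correlations of 0.43, 0.135 and 0.65), and on no other day were all 3 correlations over 0.1. The other day 21 values given here are from the fit without pairing. With the replicate number as a block, *ZEB2* at day 21 was higher by 0.83 (SE 0.16, adjusted p 0.00370) and *TFAP2A* by 0.39 (SE 0.12, adjusted p 0.0334), and still none of the 6 was called. Of the 23212 genes tested at day 21, 6930 passed the adjusted p in the fit with the block and 2076 were called.

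**Figure D3:**
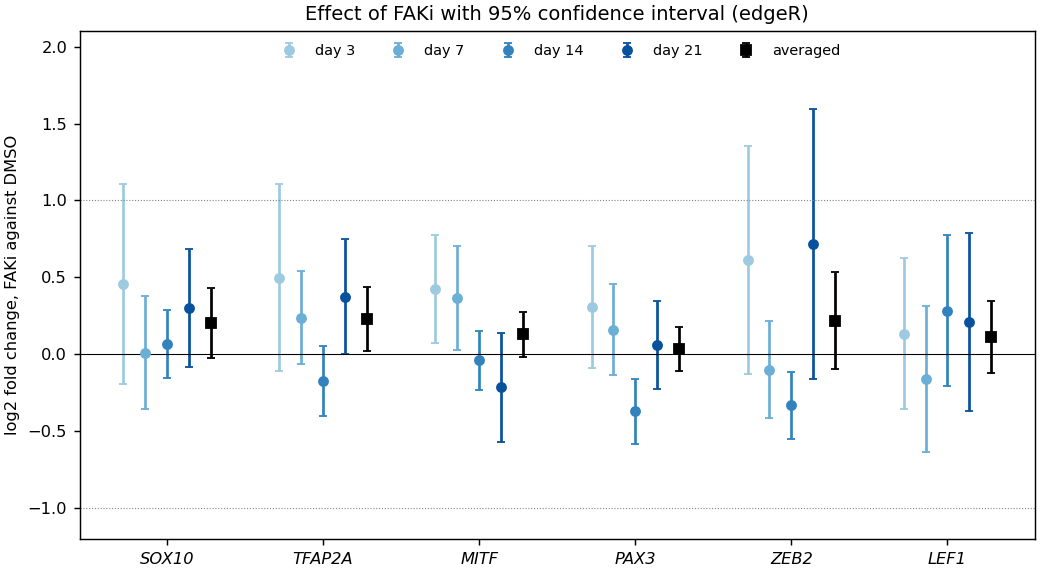
Fitted log2 fold change of FAKi against DMSO (vertical axis) with its 95% confidence interval, for each gene on each day and averaged over the 4 days; dotted lines mark the fold threshold of 1. The widest intervals are those of *ZEB2* at days 3 and 21, and *PAX3* and *ZEB2* lie below 0 at day 14.

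Averaged over days 3 to 21 in a fit of 24 libraries, none of the 6 was called by edgeR or DESeq2, beside 1.89% of all genes, and none passed the adjusted p alone (15.7% of all genes did). *TFAP2A* had a mean effect of 0.23 (95% interval 0.02 to 0.44, adjusted p 0.128, the 1 member with an unadjusted p under 0.05, beside 30.3% of all genes), *ZEB2* 0.22 (interval -0.10 to 0.54), *SOX10* 0.20 (interval -0.02 to 0.43), *MITF* 0.13 (interval -0.02 to 0.28), *LEF1* 0.11 (interval -0.12 to 0.35) and *PAX3* 0.03 (interval -0.11 to 0.18). The upper bounds of all 6 intervals are below the fold threshold of 1. With the 3 libraries that stand apart left out, 5 members passed the adjusted p alone, beside 33% of all genes in that fit: *ZEB2* with 0.52 (adjusted p 4.96e-05), *TFAP2A* with 0.36 (9.28e-06), *SOX10* with 0.34 (3.26e-05), *LEF1* with 0.28 (0.0277) and *MITF* with 0.22 (0.00199). *PAX3* stayed at 0.08 (0.282), and none was over the fold threshold. The DMSO libraries left out in this fit had the highest levels of all 6 members in their groups. Leaving them out thus lowers the DMSO side for each member. With any 1 of the 24 libraries left out, the mean effect was 0.134 to 0.378 for *ZEB2*, 0.154 to 0.327 for *SOX10* and 0.179 to 0.341 for *TFAP2A*.

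The difference of the FAKi effect between days was tested in the same fit. None of the 6 was called by edgeR or DESeq2, beside 7.68% of all genes, and 2 had an unadjusted p under 0.05, beside 27.2%. *MITF* had daily effects from 0.42 at day 3 to -0.22 at day 21, a range of 0.64 in that fit (adjusted p 0.0703), and *PAX3* a range of 0.67 (adjusted p 0.0959), being above DMSO in all libraries of day 7 and below it in all libraries of day 14. *ZEB2* had the largest range, 1.03, with an adjusted p of 0.207. Without the 3 libraries that stand apart, *ZEB2* (1.67), *TFAP2A* (1.11) and *SOX10* (1.06) were called, beside 24% of all genes. That fit again lacks the DMSO libraries of days 3 and 21 with the highest levels of these genes.

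Across the 27 libraries the closest pair was *SOX10* and *TFAP2A*, with a Pearson r of 0.963 of log2 CPM, and 0.943 after the group means were removed. *TFAP2A* and *LEF1* had the lowest r, 0.305. *MITF* and *LEF1* were at 0.341 over all libraries and at 0.814 within groups. These values are descriptions over libraries that share days, treatments and depth. Of the 16981 genes with a mean of at least 1 CPM, the 3 closest to *MITF* were *PCYOX1* (0.952), *SLC19A2* (0.951) and *TRAM1* (0.946), and to *SOX10* they were *POM121C* (0.983), *RBPMS-AS1* (0.976) and *RIPOR1* (0.973). For *ZEB2* they were *AFDN* (0.984), *ELF1* (0.980) and ENSG00000248113 (0.979), for *LEF1* *IGF2R* (0.917), LINC02693 (0.903) and *TANC1* (0.898), and for *PAX3*, with lower values, they included *MFAP3L* (0.845) and *SAMD4A* (0.839). The gene closest to *TFAP2A* was *MTATP6P1* (0.982), a nuclear copy of a mitochondrial gene that can share reads with it, followed by *CNOT4* (0.981) and *UBAP2L* (0.974).

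That likeness is visible library by library. In the 8 libraries with a mitochondrial share of 5.49% to 11.2%, all of DMSO day 3, DMSO day 21 or FAKi day 21, *TFAP2A* was at 190 to 301 CPM, and in the other 19, at 16.8% to 27%, it was at 452 to 709 CPM. *SOX10* (317 to 468 against 633 to 895 CPM) and *MITF* (128 to 186 against 191 to 323 CPM) were also without overlap. *ZEB2* (21.3 to 85.4 against 82.3 to 134 CPM), *PAX3* (70.5 to 93.8 against 74.5 to 134 CPM) and *LEF1* (3.54 to 6.67 against 4.01 to 8.46 CPM) overlapped. The part of the mitochondrial share in these levels was not tested.

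**Figure D4:**
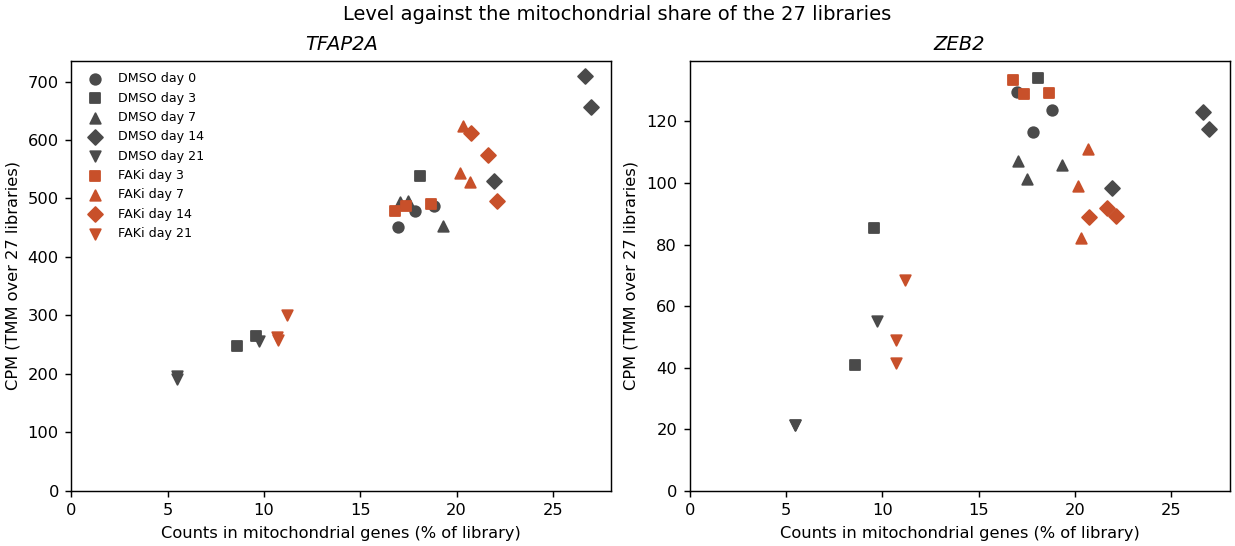
CPM of *TFAP2A* (left) and *ZEB2* (right) against the share of counts in mitochondrial genes (horizontal axis, % of library) in the 27 libraries, by treatment and day. The 8 libraries under 12% lie below the other 19 for *TFAP2A* and overlap with them for *ZEB2*.

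Of 16 paralogs of the members 13 were tested. On the average of FAKi over days 4 of them passed the adjusted p, 1 higher and 3 lower, beside 15.7% of all genes, with a median of -0.15. Over the days in DMSO 6 of 13 were called, beside 32.9% of all genes (3 were called without DMSO day 21 replicate 1 or without replicate 2, and 7 without replicate 3): *SOX5*, *SOX6*, *SOX9*, *TCF7L2*, *TFEB* and *ZEB1*. Of these, *TFEB*, a close relative of *MITF*, was higher at day 21 than at day 0 (1.33, adjusted p 0.00741 in edgeR), while *ZEB1*, the paralog of *ZEB2*, was lower (-1.71, adjusted p 0.0446), as were *SOX5* (-1.43), *SOX6* (-1.09), *SOX9* (-1.41) and *TCF7L2* (-1.36). Without DMSO day 21 replicate 3 these were -2.89 for *ZEB1*, -2.09 for *SOX5*, -1.38 for *SOX6*, -1.54 for *SOX9*, -1.52 for *TCF7L2* and 1.55 for *TFEB*. *ZEB1* and *ZEB2* were thus both lower at day 21.

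Among 16 other factors of the lineage and the neural crest, 5 were called at day 21, beside 5.28% of all genes. *IRF4*, which works with MITF on *TYR*, rose by 1.37 (adjusted p 0.0325), *POU3F1* by 1.16 (0.00646) and *TBX3* by 1.04 (0.0406), while *HES1*, a Notch target, fell by 1.35 (0.00420) and *SNAI1* fell by 1.47 (0.0436). The edgeR calls of *IRF4*, *TBX3* and *SNAI1* held in 1 of the 6 fits with a day 21 library left out, the one without DMSO day 21 replicate 3. That of *POU3F1* was lost without FAKi day 21 replicate 2 or 3 and that of *HES1* without FAKi day 21 replicate 2. Averaged over days, *IRF4* was higher by 0.98, *TBX3* by 0.60 and *POU3F1* by 0.42, and *HES1* fell by 0.73, all past the adjusted p (at most 0.00149), whereas *SNAI1* (-0.48) was at 0.173.

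The pigment targets of MITF were followed next. On the average over days 9 of 14 passed the adjusted p of the edgeR test, all higher in FAKi, where 6.96% of all genes passed it upwards, and their median effect was 0.42, against 0.01 for all genes. *DCT*, the dopachrome tautomerase, was called, with 1.02 (adjusted p 0.000126). It passed the adjusted p in all 24 fits with a library left out and the fold threshold in 16 of them. *OCA2*, a melanosome membrane protein, had 0.78 (adjusted p 1.09e-08) and *MLPH*, which ties melanosomes to myosin, 0.59 (0.00186). *OCA2* stood at 70.6 ± 9.15 CPM (SD, n = 3) in DMSO and 170 ± 6.55 CPM in FAKi at day 21, where it was called (1.30, adjusted p 0.00379) and remained so without any 1 library. *DCT* (1.19) and *MLPH* (1.13) were called there too, but each passed the adjusted p only without DMSO day 21 replicate 3 among the 6 fits with a library left out, where *DCT* was called (1.37) and *MLPH*, with 0.83, was not.

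With time in DMSO, from day 0 to day 21, 8 of the 14 pigment genes passed the adjusted p upwards and 1 downwards, beside 24.1% and 20.7% of all genes, with a median of 0.61, in the same libraries in which all 6 factors fell. This comparison and that of FAKi with DMSO at day 21 share the DMSO day 21 libraries.

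**Figure D5:**
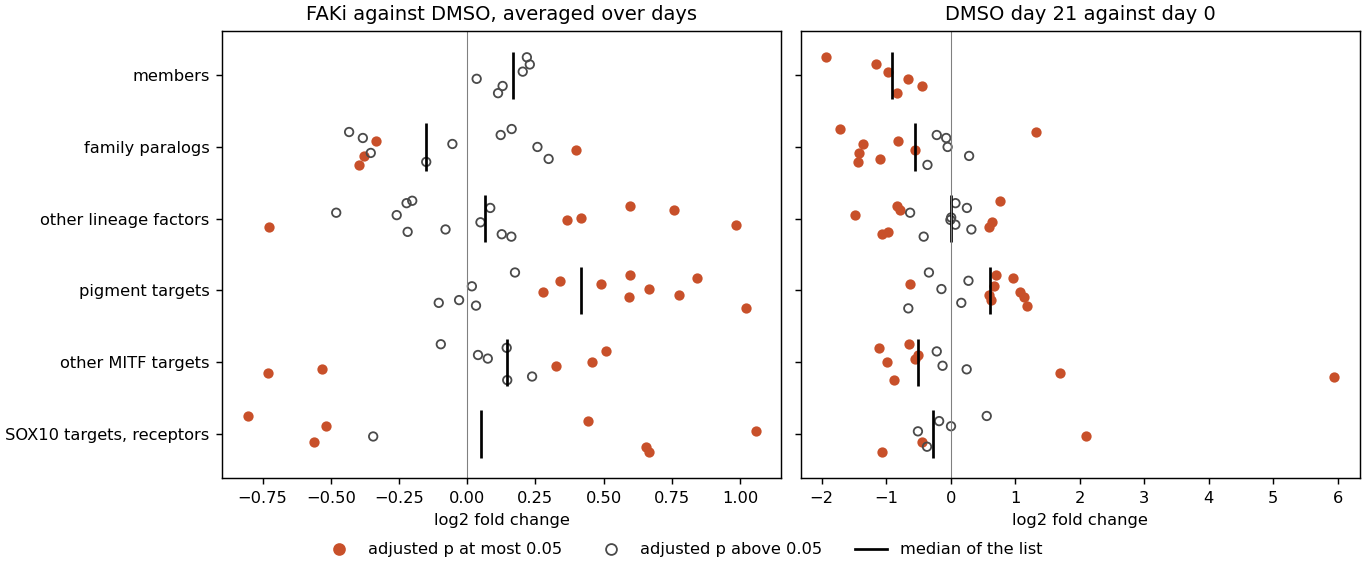
Log2 fold changes (horizontal axes) of single genes by list, for FAKi against DMSO averaged over days 3 to 21 (left) and DMSO day 21 against day 0 (right); filled points passed an adjusted p of 0.05 and bars are list medians. The members have a median of 0.17 on the left and -0.90 on the right, and the pigment targets of MITF 0.42 and 0.61.

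Of 11 other MITF targets, 5 passed the adjusted p on average over days, 3 up and 2 down, beside 15.7% of all genes. *CAPN3*, a calpain of melanocytic cells, was called at day 21: it was at 154 ± 4.2 CPM in DMSO and 55.0 ± 1.73 CPM in FAKi (SD, n = 3), a fitted change of -1.46 (adjusted p 0.00208 in edgeR) that was called without any 1 library as well. Of the SOX10 targets and melanoblast receptors 8 of 9 were tested and 7 passed the adjusted p on the average, 4 up and 3 down, again beside 15.7% of all genes. *KIT*, the receptor of melanoblasts, had no count in 19 of the 27 libraries.

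Of 11 Wnt feedback and target genes, a readout of LEF1 and beta-catenin, 9 were tested. On the average 2 were called, both lower in FAKi, beside 1.89% of all genes. By the adjusted p alone 1 passed upwards and 2 downwards, beside 15.7% of all genes, and the median of the list was -0.07. *NOTUM* changed by -1.44 (adjusted p 0.00175) and was called in all 24 fits with a library left out, and *DKK1* by -1.77 (adjusted p 0.0269), which was lost when replicate 3 of DMSO at day 3 or replicate 1 of DMSO at day 14 was left out. Both are scarce, with group means of at most 3.22 and 0.66 CPM. At day 21 without DMSO day 21 replicate 3, the list had 3 genes passing the adjusted p upwards and 1 downwards, beside 48.5% of all genes. The 7 genes of the MITF-low melanoma state were at 15.1 to 37.4 CPM together, of which *TEAD4* had 10.6 to 33 CPM, and 1 of them, *FOSL1*, was called at day 21 (-1.68, adjusted p 0.0195), which was lost in 4 of the 6 fits with a library left out. Of the 8 ZEB targets and junction genes 6 were tested, with a median of 0.0028 on the average. *ESRP1* had an unadjusted p of 0.0369 there (0.16, adjusted p 0.135), and the adjusted p of the other tested genes ran up to 0.910.

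Of the 5 tested genes on the opposite strand or in the same locus, *POLR2F*, next to *SOX10*, was called at day 21 (-1.16, adjusted p 0.0299 in edgeR). It was at 126 ± 45.5 CPM in DMSO and 55.3 ± 7.1 CPM in FAKi (SD, n = 3), and its call held only without DMSO day 21 replicate 3 among the 6 fits with a library left out. Against day 0 it was higher by 1.08 in DMSO at day 21, while *SOX10* was lower. *PAX3-AS1* and *MITF-AS1* were not analysed here. As checks, *PTK2*, which encodes the inhibited kinase, had an averaged FAKi effect of 0.04 (adjusted p 0.786) and *GNAQ* of -0.12 (adjusted p 0.384).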

How the data were processed

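RNA sequencing of 92.1 cells gave 27 libraries in 9 groups of 3. According to the submitters' notes and the study's methods, reads were trimmed with Trim Galore, checked with FastQC 0.11.8, aligned to hg38 with STAR 2.5.3a and counted with HOMER. The deposited table holds raw, whole-number counts made by the authors over the exons of 1 transcript per gene, and 0 sample columns were left unused. Of 61533 genes, 17687 had no count.

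Comparisons used edgeR 4.0.16 in R 4.3.3 (quasi-likelihood F test, TMM scaling, genes under 20 total counts removed, Benjamini-Hochberg over all genes tested), in place of the DESeq2 of the study's methods (here an alternative, version 1.42.0). Calls needed both an adjusted p no higher than 0.05 and a log2 fold change beyond 1 in either direction; for tests over several days the range of the fitted values took the place of the fold change. Each daily comparison used the 6 libraries of that day. Levels are CPM, counts divided by library size and scaled with TMM over all libraries, or CPM per kilobase of counted exon (RPKM). The likeness of patterns used log2 CPM with a prior count of 2. The distance of a library is the mean root mean square difference of log2 CPM from its replicates over genes of at least 1 CPM. The fits were tested on simulated counts with 200 genes changed by a log2 fold of 2. The test of the difference between days recovered 84 of them, and that of DMSO day 21 against day 0 recovered 149. The other tests recovered 162 to 200, and the false calls ran from 4 to 13. The changed genes were not scarce, the simulated spread was capped, and no simulated library was made to stand apart. The recovered numbers thus do not carry over to smaller changes or to groups with such a library. Total counts of 12161994 to 43651551 limit the precision of scarce genes such as *LEF1*.

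The main fits used no pairing. At day 21 each correlation of the deviations of same-numbered libraries was over 0.1 (0.135 to 0.65). A fit with the replicate number as a block is therefore given for day 21 as well. At days 3, 7 and 14 the correlations were between -0.147 and 0.111. The members and gene lists were chosen with earlier results of these data known. Named besides the members were *PTK2*, *GNAQ*, list genes called in a comparison of FAKi with DMSO (at most 5 a list, by the averaged change) and the 3 genes closest to each member; *KIT*, *TYR*, *ESRP1*, *TEAD4*, the marker genes of other cell types and the paralogs were named after their values were seen. Some genes that this rule would name are not reported here. Promoters and start sites are RefSeq's (GRCh38.p14), and exon overlaps come from GENCODE 44. Alternatives were other scalings, count filters, DESeq2, a replicate block, all libraries in 1 fit, the adjusted p alone and each library left out; fits without the 3 libraries that stand apart, without mitochondrial genes, and with the block and the adjusted p alone were chosen after seeing the data.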

Additional observations from a re-analysis of the deposited data

Results flagged for a closer look

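Of the named list genes 4 had a FAKi effect that differed between days, in the edgeR test of the interaction of treatment and day over 24 libraries, with a range of the 4 daily log2 effects over 1. For *CAPN3* the range was 1.37 (adjusted p 0.000177), with effects of -0.10, -0.34, -0.22 and -1.46 at days 3, 7, 14 and 21. For *POLR2F* it was 1.20 (adjusted p 0.0268) and for *POU3F1* 1.13 (adjusted p 0.0107). Their day 21 effects were -1.16 and 1.16, and the earlier ones between -0.14 and 0.28. For *DCT* it was 1.84 (adjusted p 0.0409). Here day 14, at 23.7 CPM in DMSO and 24.1 CPM in FAKi, had a fitted difference of 0.03, against 1.88 at day 3. The DMSO group of day 3 was split, and 0 genes were called on that day alone. In this test the pigment targets called were 2 in the main fit and 0 to 4 over 24 fits with a library left out. The call of *DCT* was thus not kept in all of these. None of the 6 lineage factors was called in this test with all 24 libraries.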

How the results depend on the processing

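None of the members' calls between FAKi and DMSO on single days or on the average changed with RLE or upper quartile scaling, with the count filters, in DESeq2 or without mitochondrial genes. The number of genes called at day 3 was 1181 with no count filter, 745 in DESeq2 and 802 with all libraries in 1 fit. At day 7 it was 220, 104 and 69 in the same order, and 0 with the replicate block. At day 14 it was 632 with all libraries in 1 fit and 2918 (12.4%) by the adjusted p alone, where 2 of 6 members passed. At day 21 it was 1913 with no count filter, 2076 with the replicate block and 1954 with all libraries in 1 fit. By the adjusted p alone it was 2692 at day 21. With the block it was then 6930 of 23212 genes, where 2 of 6 members passed. On the average it was 81 with at least 10 counts in every library, 4371 by the adjusted p alone and 1037 without the libraries that stand apart. For the difference between days it was 2143 (7.68%) in the main fit, 3659 with no count filter (1 member) and 3414 in DESeq2. Without the libraries that stand apart it was 6575 (24% of all genes, 3 of 6 members). By the adjusted p alone, 13074 genes (49.9%) and 6 of 6 members changed over days in DMSO. In FAKi these were 11269 genes (45.1%) and 5 of 6 members, and between day 21 and day 0 9986 genes (44.9%) and 6 of 6 members. Pairing by replicate number changed no other call of a member and moved no other count by more than 1.5 times.

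With each library left out in turn, the genes called ranged from 0 to 2765 at day 3, 0 to 248 at day 7, 275 to 445 at day 14, 52 to 4248 at day 21, 376 to 848 on the average, 1281 to 4336 for the difference between days, 6596 to 10321 over days in DMSO, 4889 to 7250 over days in FAKi and 3402 to 7999 between day 21 and day 0. The members called ranged from 0 to 1 at day 3 and at day 21, 0 to 2 for the difference, 2 to 4 over days in DMSO, 2 to 3 in FAKi and 2 to 4 between day 21 and day 0. Signs turned for values near 0. *SOX10* at day 7 was -0.0046 with no count filter, -0.0026 with the replicate block and -0.0946 to 0.14 with a library left out. *LEF1* was at -0.0102 to 0.31 at day 3 and -0.27 to 0.0217 at day 7, *ZEB2* at -0.20 to 0.0101 at day 7, *SOX10* at -0.0038 to 0.17 at day 14 and *PAX3* at -0.0031 to 0.0794 on the average. The cause of these changes was not tested. With 66 to 372 counts, *LEF1* is the member whose values depth limits most.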

Other observations

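*DCT* and *MITF* had their highest DMSO levels on the same day. The summed level of the pigment targets of MITF did not share this course. In DMSO it was 9879 to 10249 CPM at day 0, 9465 to 10537 CPM at day 14 and 12484 to 14425 CPM at day 21. *DCT* was at 5.85 ± 0.86 CPM at day 0, 23.7 ± 4.47 CPM at day 14 and 3.73 ± 0.97 CPM at day 21 in DMSO (SD, n = 3), and *IRF4* followed with 0.83 ± 0.13, 3.25 ± 1.14 and 0.86 ± 0.29 CPM. *TYR* was at 150 ± 7.41 CPM at day 0, 318 ± 25.7 CPM at day 14 and 246 ± 27.8 CPM at day 21, so that it was higher at day 21 than at day 0 although the *MITF* level was lower.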
